A study of Mus musculus with 16 samples.

Results

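The response of wild-type mouse macrophages to LPS was followed across 19937 genes in 8 arrays, 4 of stimulated and 4 of unstimulated cells. They belong to a set of 16 arrays in which NFAT5 knockout (KO) macrophages were treated in the same way, 4 arrays with LPS and 4 without. All cells were bone-marrow-derived macrophages, which are grown from marrow precursors in culture, and both genotypes were on the 129sv strain background. Every gene read by at least 1 probe set that the array annotation assigns to it alone was included, and where several probe sets read it the brightest over all 16 arrays was kept. Levels are log2 values, so that a difference of 1 is 2-fold. The sources used here do not give the LPS dose, its duration, or the medium or growth factor that matured the cells. The labels do not say whether the 4 arrays of a group came from separate mice or cultures. The p-values therefore reflect variation among these arrays alone, part of which could be technical. Unless stated otherwise, SEs and adjusted p-values draw on the spread within the groups of all 16 arrays, those of KO cells among them.

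LPS is a component of the outer membrane of Gram-negative bacteria. Macrophages bind it through CD14 and the receptor complex of TLR4 and MD-2. One branch of the signal runs through the adaptor MyD88 to the transcription factor NF-kB and the MAP kinases and turns on cytokines, chemokines and the inhibitors that later end the response. The other runs through the adaptor TRIF to IRF3 and interferon beta, which acts back on the cells and induces antiviral genes. In the same hours macrophages move towards glycolysis and lower many genes of the resting state.

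The labelled cell type was checked against marker genes. All 8 measured macrophage markers, among them Adgre1 (the F4/80 antigen), Itgam and Csf1r, had levels between 8.51 and 13.75. The 19 measured defining markers of T, B, NK and dendritic cells, neutrophils and stromal cells lay between 4.14 and 8.13. The longer marker lists given further on, endothelial markers among them, hold brighter genes such as Cd83, Itgax, Pf4, Pdgfrb and Kdr. Levels of different probe sets are not on 1 scale. On the first principal component, with 77.5% of the variance of the 8 arrays, the unstimulated arrays scored from -51.8 to -37.7 and the LPS arrays from 40.8 to 49.6. The second held 7.06% and spread the unstimulated arrays, with array 1 at -24.4 and array 4 at 26.0. These 2 arrays also stood at opposite ends for interferon-induced genes, described below. Of the genes every cell uses, Actb was not called, at 0.10 ± 0.0819 (adjusted p = 0.424), and Hprt fell by 0.58 ± 0.108 (SE; adjusted p = 0.000308). A lower level in these bulk samples can come from fewer cells of a type or from less RNA per cell, and the 2 cannot be told apart.

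LPS changed a large share of the genes measured. In the limma fit, with p-values adjusted by the Benjamini-Hochberg method and a call at an adjusted p under 0.05, 2786 of the 19937 genes (14%) rose with LPS and 3346 (16.8%) fell. At least 2-fold changes were called in 697 rises (3.50%) and 930 falls (4.66%). Falls were more numerous but shorter in reach. At 4-fold or more there were 213 rises and 158 falls, at 8-fold 80 and 26, at 16-fold 27 and 6, and at 32-fold 9 and 0. The median change was 0.0615 over all genes, 0.59 over the rises and -0.69 over the falls. The 4 LPS arrays lay wholly above the 4 unstimulated ones for 16.2% of all genes and wholly below them for 16.2%, called or not. Of the rises of at least 2-fold, 690 of 697 did not overlap, and of such falls 925 of 930. The typical spread was small against these changes, with a median SD of 0.157 among unstimulated and 0.133 among LPS arrays and a median SE of a change of 0.117. Genes that rose at least 2-fold went from a median level of 8.28 to 10.2, and those that fell from 9.47 to 7.86, where the median unstimulated level of all genes was 7.09.

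**Figure D1:**
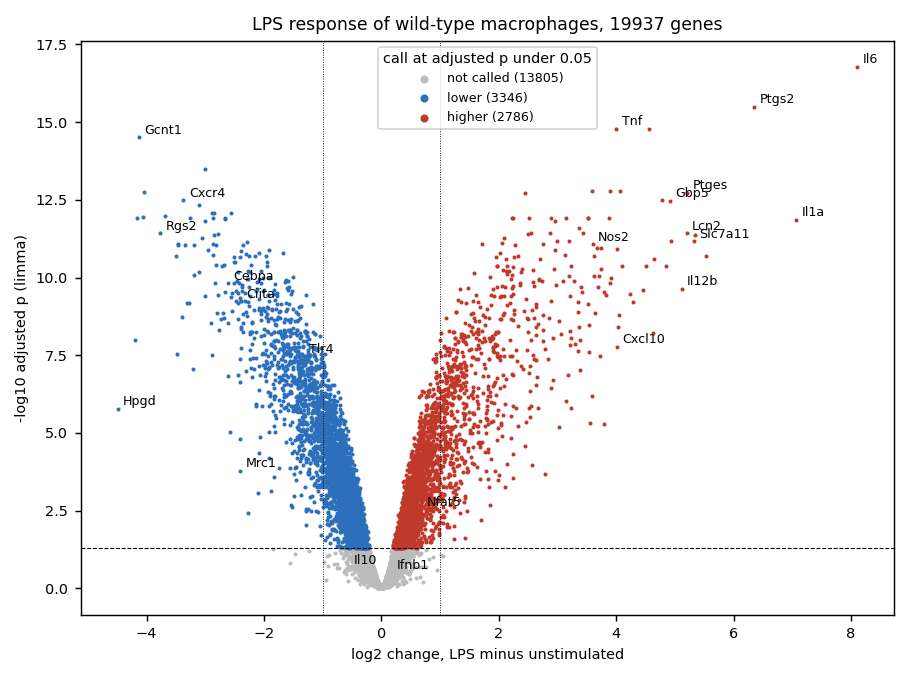
Log2 change with LPS in wild-type macrophages (x axis) against -log10 of the adjusted p of the limma fit (y axis), 1 dot per gene, red for called higher, blue for called lower and grey for not called. The dashed line marks an adjusted p of 0.05 and the dotted lines 2-fold; the right arm reaches 8.11 (Il6) and the left arm -4.49 (Hpgd).

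Il6, which encodes the cytokine that drives fever and the acute phase response, moved furthest. Its levels were 4.37, 3.86, 4.39 and 4.32 in unstimulated arrays 1 to 4 and 12.20, 12.61, 12.29 and 12.28 in LPS arrays 1 to 4. The groups lie far apart, and unstimulated array 2 was the lowest. An exact two-sided permutation test over the 8 arrays gave p = 0.0286 for Il6, and the same value for Nos2, Tnf and Nfat5, the smallest that 4 against 4 arrays can give. The neutrophil-attracting chemokine Cxcl3 had levels of 6.26, 6.16, 5.65 and 6.33 without LPS and 10.92, 11.76, 11.92 and 11.19 with it. Cxcl10, which attracts T cells and is induced by interferon as well as by NF-kB, had 9.62, 8.15, 8.13 and 7.61 without and 12.45, 12.10, 12.45 and 12.56 with LPS. For Cxcl10, unstimulated array 1 stands above the other resting arrays, and the groups still do not overlap. RMA, the method behind these values, compresses changes of dim genes, so a fold from a level as low as that of Il6 is not exact.

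The promoters of 5 strongly induced genes are shown because each holds a match to the letters GGANTTTCC, one form of the NF-kB site, within 250 bases before the RefSeq transcription start. The sequences are from RefSeq, assembly GRCm38.p6, read on the strand of the gene. Capitals mark matches to the NF-kB letters and, in Cxcl10, also to the letters GAAANNGAA of the interferon response element.
Il6 (chr5:30012864-30013113, + strand): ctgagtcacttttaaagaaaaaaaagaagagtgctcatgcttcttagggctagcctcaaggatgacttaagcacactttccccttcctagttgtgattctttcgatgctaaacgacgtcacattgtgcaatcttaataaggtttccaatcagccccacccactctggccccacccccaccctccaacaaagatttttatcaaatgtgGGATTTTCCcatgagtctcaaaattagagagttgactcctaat
Cxcl1 (chr5:90890995-90891244, + strand): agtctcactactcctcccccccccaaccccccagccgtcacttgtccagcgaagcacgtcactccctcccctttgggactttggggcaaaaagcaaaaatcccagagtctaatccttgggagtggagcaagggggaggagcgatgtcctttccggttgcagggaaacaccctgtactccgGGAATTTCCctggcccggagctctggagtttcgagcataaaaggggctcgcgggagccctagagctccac
Cxcl2 (chr5:90903649-90903898, + strand): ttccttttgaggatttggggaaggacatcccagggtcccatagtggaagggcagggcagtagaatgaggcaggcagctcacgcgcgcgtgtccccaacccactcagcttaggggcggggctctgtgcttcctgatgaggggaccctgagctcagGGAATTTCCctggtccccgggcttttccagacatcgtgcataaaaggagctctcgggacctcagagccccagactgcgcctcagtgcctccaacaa
Cxcl3 (chr5:90785851-90786100, + strand): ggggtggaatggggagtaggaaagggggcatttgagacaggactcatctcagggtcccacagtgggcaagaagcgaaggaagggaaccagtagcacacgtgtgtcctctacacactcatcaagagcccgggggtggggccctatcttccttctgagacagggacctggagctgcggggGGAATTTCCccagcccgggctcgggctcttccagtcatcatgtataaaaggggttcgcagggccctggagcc
Cxcl10 (chr5:92348890-92349139, - strand): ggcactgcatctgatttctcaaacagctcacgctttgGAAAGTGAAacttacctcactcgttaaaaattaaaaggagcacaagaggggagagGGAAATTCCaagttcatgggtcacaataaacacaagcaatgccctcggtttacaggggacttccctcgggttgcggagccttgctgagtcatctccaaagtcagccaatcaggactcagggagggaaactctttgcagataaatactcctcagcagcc
The NF-kB letters lie 43 to 35 bases before the start in Il6, 70 to 62 in Cxcl1, 96 to 88 in Cxcl2, 72 to 64 in Cxcl3 and 158 to 150 in Cxcl10. The neighbouring chemokine genes Cxcl1, Cxcl2 and Cxcl3 on chromosome 5 carry the same 9 letters, GGAATTTCC, and rose by 4.56 ± 0.108, 4.78 ± 0.164 and 5.35 ± 0.229. In Cxcl10 the interferon letters lie from 213 to 205 bases before the start, upstream of the NF-kB letters.

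The share of promoters with these letters was highest among the genes that rose at least 8-fold. The search covered both strands of 300-base windows from 250 bases before to 50 bases after each start, and 15562 of the measured genes had at least 1 window. The NF-kB letters were in 11 of 75 windows (14.7%) of the genes that rose at least 8-fold. They were in 2.75% of windows of genes that rose 2-fold to 8-fold, in 1.69% where the rise was under 2-fold, and in 1.29% where no change was called. Among genes that fell, the share was 0.834% under 2-fold, 0.808% from 2-fold to 8-fold and 0 of 31 windows at 8-fold or more. Over all 32851 windows it was 1.25%. The 11 windows belong to 11 genes: besides the 5 shown they include Acod1, Ccrl2 and Gbp5, and Il12a and Shisa3, which were named after their values were seen. The letters TGANTCA of AP-1 were in 21.3% of windows of the genes that rose at least 8-fold, in 12.9% (4 of 31) of those that fell at least 8-fold and in 7.81% of all windows. The interferon letters were in 12 of the 75 windows of genes that rose at least 8-fold, 3.23% of those of genes that fell at least 8-fold and 8.56% of all. The letters TATAAA of the TATA box were in 25.3% and 22.6% of the windows that rose and fell at least 8-fold and in 13.6% of all. These shares describe letters in a window and were not tested.

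**Figure D2:**
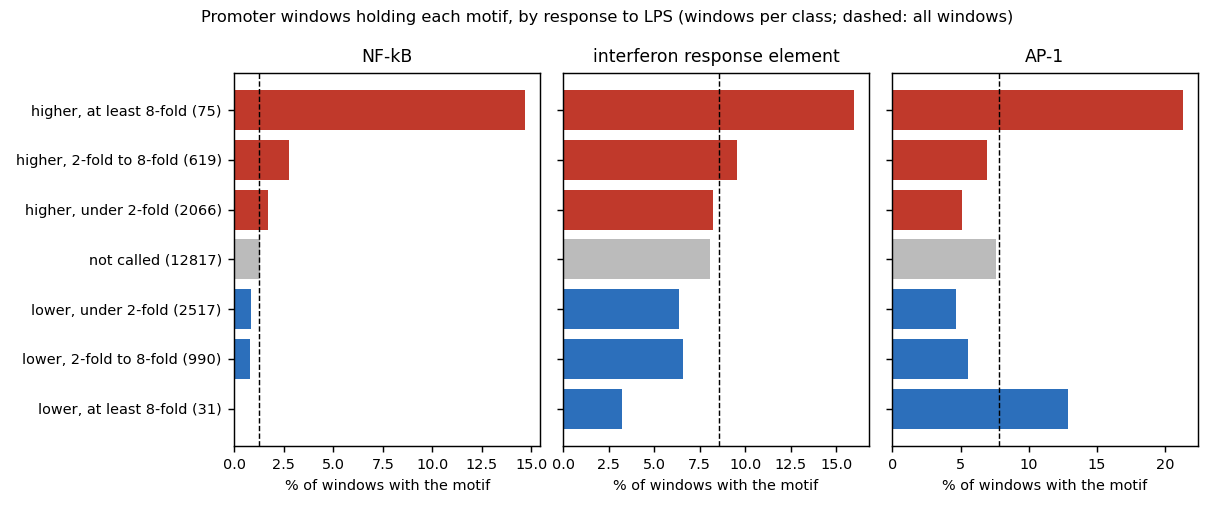
Percent of 300-base promoter windows that hold the letters of each motif (x axis), by the call and size of the LPS response (y axis, with the number of windows). Bars are red for rises, grey for no call and blue for falls, and the dashed line is the share over all windows; the NF-kB share goes from 0% at the largest falls to 14.7% at the largest rises.

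The receptor side of the pathway changed in both directions. Of 22 measured genes of LPS sensing and the Toll-like receptors, 11 rose and 6 fell. This count and those of the lists below stand against 14% rises and 16.8% falls over all genes. Tlr4, the LPS receptor itself, went from 10.06, 10.02, 9.87 and 9.93 to 8.99, 8.54, 8.67 and 8.39, a fall of 1.33 on the log2 scale with no overlap. Cd180, a TLR4-like receptor that dampens LPS signalling, fell by 1.27 ± 0.12, and so did the nucleic acid sensors Tlr9, by 1.42 ± 0.169, and Tlr13, by 1.68 ± 0.143. Cd14, the co-receptor that hands LPS to TLR4, rose by 1.04 ± 0.136, and Tlr1, which pairs with TLR2 to sense bacterial lipopeptides, by 1.65 ± 0.121. The kinase Irak2, which sustains MyD88 signals, rose by 1.86 ± 0.102, and Irak3, a brake on the same step, by 1.74 ± 0.118. Irak1 was not called (-0.15, adjusted p = 0.258), nor was Tlr3 (0.38, adjusted p = 0.148), although it was without LPS array 2 (adjusted p = 0.0363). The list's median change was 0.45.

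**Figure D3:**
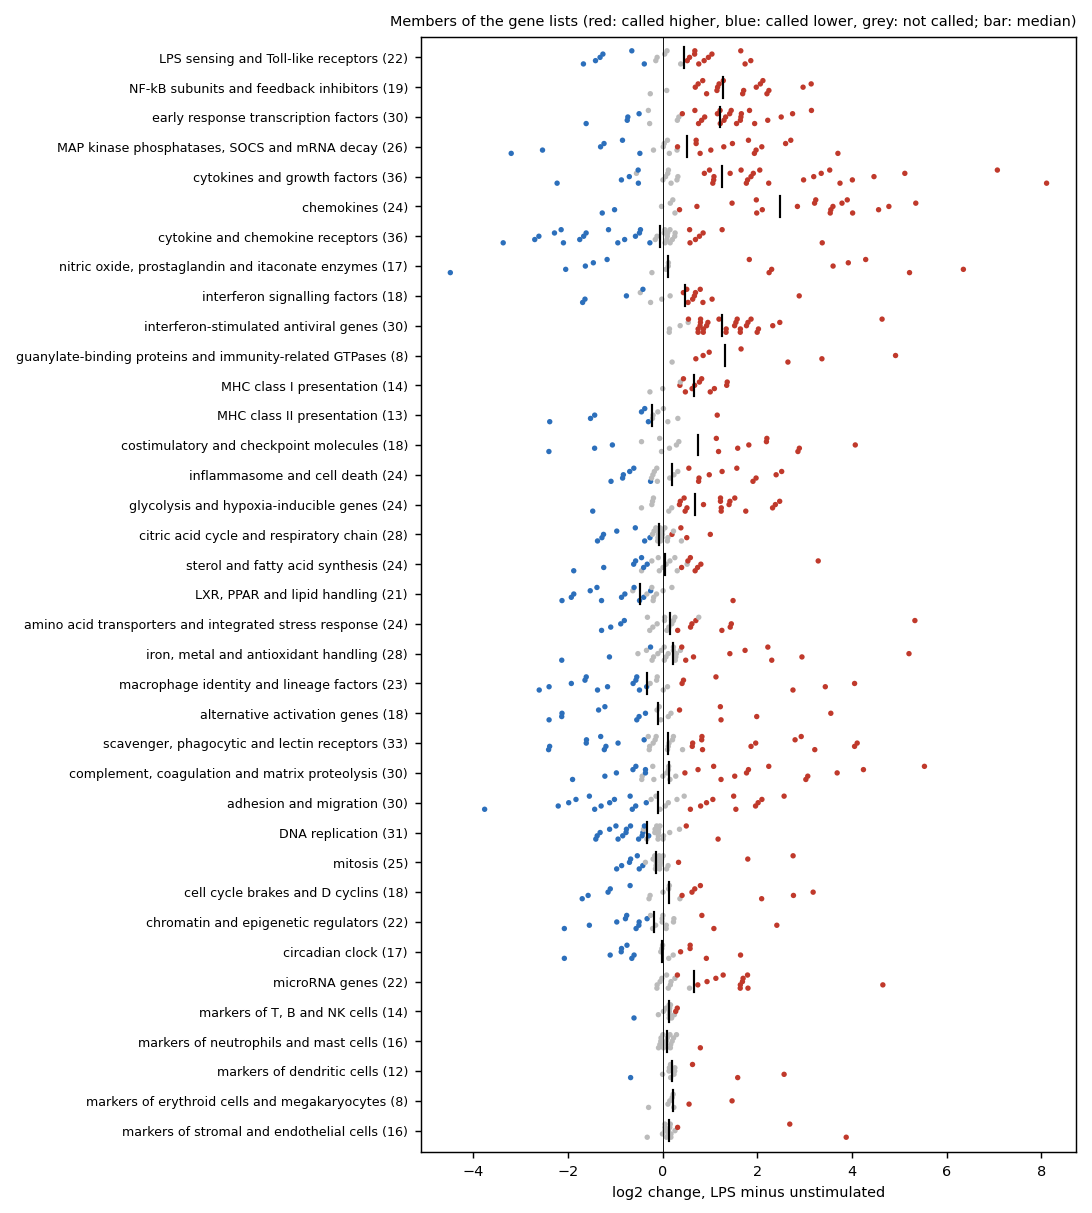
Log2 change with LPS (x axis) of every measured member of each gene list (y axis, with the number measured), 1 dot per gene, red for called higher, blue for called lower and grey for not called, with a black bar at the list's median. Red dots fill most of the rows for NF-kB, cytokines, chemokines and interferon-stimulated genes. The rows for cytokine and chemokine receptors, lipid handling and DNA replication hold more blue than red.

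NF-kB subunits and their inhibitors rose almost throughout. Of 19 measured members 17 rose and 0 fell, with a median change of 1.28 against 0.0615 over all genes. The largest rises were in genes that restrain or tune the pathway: Tnfaip3 (A20, an enzyme that edits ubiquitin chains on signalling proteins) rose by 2.96 ± 0.139, Tnip1, its partner, by 2.24 ± 0.0861, Nfkbiz, a nuclear IkB protein needed for Il6, by 2.20 ± 0.152, and the adaptor Traf1 by 3.14 ± 0.151. Tnfaip3 read 8.60, 8.95, 8.87 and 9.05 without LPS and 11.77, 11.97, 11.79 and 11.80 with it. Cyld, another deubiquitinase, was at -0.26 and Tnip2 at 0.08, neither called (adjusted p = 0.0834 and 0.65). For Tnip2 the sign turned to -0.05 without unstimulated array 1.

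Most transcription factors of the early response rose. Of 30 measured, 22 rose and 4 fell. Ets2 rose by 3.14 ± 0.122, Batf by 2.74 ± 0.153, Hivep3 by 2.50 ± 0.106 and Ier3, an early gene that affects cell survival, by 2.22 ± 0.19. The AP-1 subunit Fosl2 rose by 1.64 ± 0.123, while Fos fell by 0.75 ± 0.138. Fos went from 7.84, 8.39, 8.23 and 8.53 to 7.40, 7.35, 7.57 and 7.66. Of the Kruppel-like factors, Klf2, which restrains inflammatory genes, fell by 0.74 ± 0.134, Klf4 by 0.50 ± 0.126 and Klf10 by 1.62 ± 0.175, while Klf6, named after its value was seen, rose by 0.68 ± 0.11. Egr1, an early growth response factor, rose by 0.89 ± 0.123.

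Inhibitors of kinase and cytokine signalling and RNA-binding proteins of mRNA decay changed in both directions. Of 26 measured members of this group 14 rose and 6 fell. Socs3, which blocks signalling by the IL-6 receptor, went from 8.41, 7.74, 7.57 and 7.58 to 11.80, 11.64, 11.47 and 11.18, and the MAP kinase phosphatases Dusp2 and Dusp16 rose by 2.70 ± 0.134 and 2.59 ± 0.226. Pde4b, a cAMP phosphodiesterase, rose by 2.09 ± 0.0908. Socs6 and Dusp7 fell by 1.31 ± 0.175 and 1.24 ± 0.222. Zfp36l1 and Zfp36l2, which promote the decay of AU-rich messages, fell by 3.20 ± 0.295 and 2.54 ± 0.152. Their levels went from 11.32, 11.01, 10.68 and 11.41 to 8.65, 7.68, 7.26 and 8.03 for Zfp36l1 and from 12.31, 12.08, 12.06 and 12.32 to 9.94, 9.02, 9.78 and 9.85 for Zfp36l2. Zfp36 itself, which encodes tristetraprolin and was named after its value was seen, rose by 0.70 ± 0.14.

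Among 36 cytokines and growth factors 23 rose and 5 fell (median 1.25). Il1b, the precursor of the fever-inducing interleukin that inflammasomes activate, had levels of 9.23, 8.98, 8.0 and 8.10 without and 12.93, 13.19, 13.07 and 12.98 with LPS. Arrays 1 and 2 of the unstimulated group were the higher ones, and the groups do not overlap. Il1a went from 5.94, 5.13, 5.46 and 5.36 to 12.54, 12.87, 12.55 and 12.19. Il12b, the shared subunit of IL-12 and IL-23, went from 7.16, 6.65, 6.56 and 6.16 to 11.63, 12.47, 11.64 and 11.24. Tnf went from 9.39, 9.30, 9.44 and 9.47 to 13.28, 13.39, 13.63 and 13.33, with an SD of 0.077 in the first group and 0.156 in the second. The falls were growth factors for other tissues and cells: Pdgfb, Igf1, Pdgfa and the B cell factor Tnfsf13b fell by 2.23, 0.87, 0.71 and 0.52. Vegfa, called at -0.52 (adjusted p = 0.00917) with groups that overlap, lost the call without the arrays numbered 4 (adjusted p = 0.0584).

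Il10 and Ifnb1 were not called. Il10, the main anti-inflammatory cytokine of macrophages, read 7.47, 7.16, 6.75 and 6.96 without and 7.18, 6.82, 5.61 and 6.50 with LPS, a difference of -0.56 ± 0.321 (adjusted p = 0.217). LPS array 3 was the low one, unstimulated array 3 was also the lowest of its group, and the groups overlap. In a limma fit of the 8 wild-type arrays alone, with the replicate number as a block, the fall of Il10 was called (adjusted p = 0.0101). Ifnb1, the interferon that the TRIF branch induces, read 5.89, 5.50, 5.54 and 5.24 without and 5.65, 5.61, 5.84 and 5.76 with LPS (0.17 ± 0.121, adjusted p = 0.312). Both sets of values are low and overlap, so at the time sampled no change of the Ifnb1 message was detectable beyond the spread of the arrays.

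**Figure D4:**
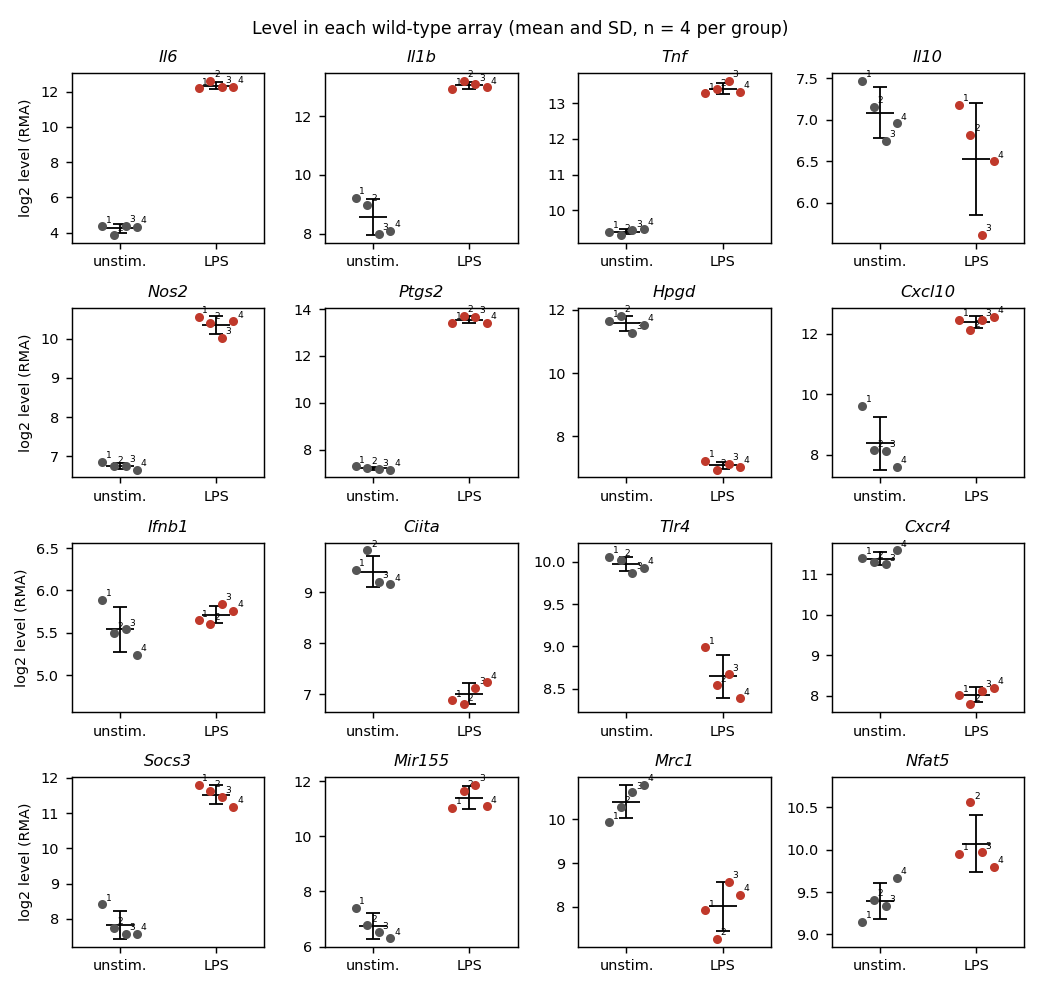
Log2 level (y axis) of 16 genes in each of the 4 unstimulated (grey) and 4 LPS (red) wild-type arrays, numbered by array, with the group mean and SD as black bars; each panel has its own scale of at least 2 log2 units. For Il10 and Ifnb1 the groups overlap and for the other 14 genes they do not.

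Chemokines mostly rose. Of 24 measured 18 rose and 2 fell, with a median change of 2.47. Beside the neutrophil chemokines already given, Ccl2, which draws monocytes, read 8.13, 7.86, 7.76 and 7.57 without and 11.26, 11.40, 10.83 and 10.65 with LPS. Ccl22 and Ccl17, ligands of CCR4 that are also used as marks of alternative activation, rose by 3.55 ± 0.45 and 1.98 ± 0.371. Pf4, a platelet chemokine that macrophages also make, rose by 1.46 ± 0.258. Cxcl14 fell by 1.28 ± 0.308 and Ccl6 by 1.02 ± 0.164. Cxcl5 was not called (0.21, adjusted p = 0.155).

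The receptors for these signals fell more often than they rose. Of 36 measured cytokine and chemokine receptors 7 rose and 16 fell. Cxcr4, the receptor that holds leukocytes in marrow and tissue, went from 11.41, 11.32, 11.25 and 11.60 to 8.01, 7.78, 8.11 and 8.19, a fall of 3.37 ± 0.116. Ccr2, the receptor for CCL2, fell by 2.71 ± 0.181, so that ligand and receptor moved in opposite directions. Il6ra, which binds IL-6, fell by 2.29 ± 0.102 while Il6 rose, and Lifr fell by 2.62 ± 0.252. Csf1r, the receptor for the growth factor that maintains macrophages, fell by 0.49 ± 0.081. The 4 largest of the 7 rises were those of Ccrl2, a receptor that holds chemerin without signalling, by 3.37 ± 0.138, the TNF receptor Tnfrsf1b by 1.25 ± 0.0967, Il17ra by 0.85 ± 0.179 and Csf3r by 0.77 ± 0.127. Tnfrsf1a, the other TNF receptor, was not called (0.26, adjusted p = 0.0788), although it was without unstimulated array 1 or LPS array 2 (adjusted p = 0.0469 and 0.0194).

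Enzymes that make inflammatory small molecules changed in both directions. Of 17 measured 8 rose and 5 fell. Ptgs2 (COX-2), which starts prostaglandin synthesis, read 7.29, 7.22, 7.16 and 7.15 without and 13.42, 13.72, 13.66 and 13.41 with LPS. Ptges, which turns its product into prostaglandin E2, rose by 5.21 ± 0.172. Hpgd, the enzyme that degrades prostaglandins, went the other way, from 11.66, 11.82, 11.28 and 11.52 to 7.22, 6.94, 7.12 and 7.04, and Hpgds, which makes prostaglandin D2, fell by 2.05 ± 0.136. The leukotriene enzymes Alox5, Lta4h and their partner Alox5ap fell by 1.18 ± 0.134, 1.64 ± 0.152 and 1.47 ± 0.11. Ltc4s, the enzyme of cysteinyl leukotrienes, was not called (-0.23, adjusted p = 0.208). Nos2 rose from 6.86, 6.75, 6.76 and 6.66 to 10.55, 10.40, 10.02 and 10.44. Slc7a2, which imports the arginine that NOS2 uses, rose by 4.29 ± 0.271, and Acod1, which makes itaconate, by 3.92 ± 0.215.

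Interferon-stimulated antiviral genes rose in 26 of 30 measured, and 0 fell. Averaged over the 30 genes, the level was 10.52, 9.97, 9.80 and 9.56 in unstimulated arrays 1 to 4 and 11.25, 11.19, 11.29 and 11.43 in LPS arrays 1 to 4. The unstimulated arrays thus lay further apart than the LPS arrays. Unstimulated array 1 was the highest of its group in 26 of the 30 genes (86.7%, against 29.9% of all genes), and array 4 the lowest in 25 (83.3%, against 36.0%). Rsad2 (viperin), which interferes with viral RNA synthesis, shows it: 10.26, 9.11, 9.45 and 8.48 without LPS and 11.62, 11.37, 12.14 and 12.05 with it. Without unstimulated array 1, 28 of the 30 rose, and without array 4, 25. Ifi205, of the family of nuclear DNA sensors, rose by 4.63 ± 0.348, Rsad2 by 2.47 ± 0.311, Isg20, an RNA exonuclease, by 2.32 ± 0.301 and Oasl1 by 2.02 ± 0.173. Ifit3 and Rtp4 were not called (0.54 and 0.37, adjusted p = 0.159 and 0.0714), but without unstimulated array 1 both rose (0.82 and 0.52, adjusted p = 0.0151 and 0.00482).

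**Figure D5:**
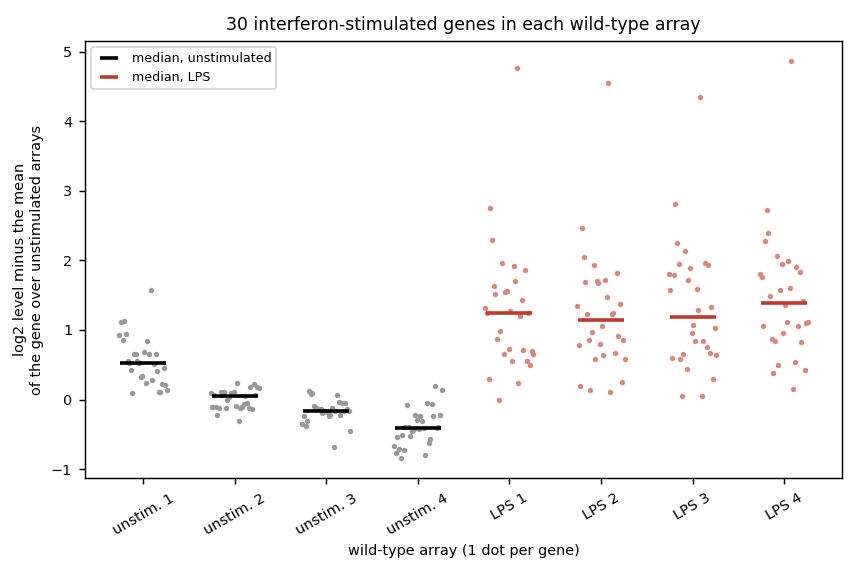
Log2 level of 30 interferon-stimulated genes, each minus its mean over the 4 unstimulated arrays (y axis), in each wild-type array (x axis), with 1 dot per gene, grey for unstimulated and red for LPS, and bars at the medians. Unstimulated array 1 holds the highest dots of its group and array 4 the lowest, while the LPS arrays have like medians.

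The guanylate-binding proteins, which attack membranes of intracellular bacteria, and the related immunity-related GTPases rose in 7 of 8 measured. Gbp5, which promotes inflammasome activation, rose by 4.92 ± 0.17, Gbp3 by 3.36 ± 0.244, Gbp7 by 2.64 ± 0.255 and Gbp4 by 1.65 ± 0.122. Gbp8 was not called (0.20, adjusted p = 0.248). The factors that carry interferon signals were divided. Of 18 measured 10 rose and 4 fell. The kinase Jak2 rose by 2.88 ± 0.111, Stat4 by 1.04 ± 0.229, Irf1 by 0.85 ± 0.158 and Stat5a by 0.79 ± 0.126. Irf8 and Irf4, which shape the myeloid lineage and alternative activation, fell by 1.64 ± 0.123 and 1.69 ± 0.152, and Stat6, which carries IL-4 signals, and Irf5 by 0.77 ± 0.0956 and 0.42 ± 0.0926.

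Most genes of class I presentation rose, and several regulators and processing enzymes of class II presentation fell, while the class II molecules were not called. Of 14 measured genes of class I presentation 11 rose and 0 fell (1 fell without LPS array 1), among the rises the peptide transporter genes Tap1 (1.0 ± 0.138) and Tap2 (1.35 ± 0.104), the proteasome activator Psme2 (1.36 ± 0.105) and the immunoproteasome subunit Psmb10 (1.09 ± 0.157). Of 13 of class II presentation 1 rose and 6 fell. Ciita, the factor that switches class II genes on, read 9.44, 9.82, 9.20 and 9.15 without and 6.88, 6.80, 7.13 and 7.23 with LPS. H2-DMa, which loads peptides onto class II, fell by 1.53 ± 0.22, Ifi30, a thiol reductase of antigen processing, by 1.44 ± 0.2 and Rfxank by 0.45 ± 0.122. H2-Ob, a modulator of that loading, rose by 1.15 ± 0.206. The surface molecule H2-Aa was not called (-0.22, adjusted p = 0.475), and neither were H2-Ab1, H2-Eb1 and the invariant chain Cd74 (0.01, -0.21 and -0.10, adjusted p = 0.962, 0.526 and 0.631), which were named after their values were seen. The classes were not tested against each other.

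Costimulatory and checkpoint molecules rose in 9 of 18 measured and fell in 3. Cd40, through which T helper cells activate macrophages, read 8.71, 8.68, 8.89 and 8.53 without and 12.76, 13.05, 12.79 and 12.48 with LPS. Cd274 (PD-L1), which restrains T cells, rose by 2.86 ± 0.197, Slamf1 by 2.89 ± 0.297, Icosl by 2.20 ± 0.172 and Cd83 by 1.58 ± 0.19. The inhibitory receptors Cd200r1, Havcr2 (TIM-3) and Vsir (VISTA) fell by 2.41 ± 0.21, 1.44 ± 0.23 and 1.07 ± 0.144. Sensors and executioners of cell death were mixed, with 10 of 24 higher and 6 lower. Nlrp3, the inflammasome sensor that LPS primes, went from 9.52, 9.99, 9.46 and 9.87 to 11.98, 12.17, 12.07 and 12.20, and Mefv (pyrin) rose by 2.51 ± 0.291. Mlkl, which punctures membranes in necroptosis, rose by 1.91 ± 0.159 and Cflar, an inhibitor of caspase-8, by 1.97 ± 0.114. Pycard (ASC), the adaptor that joins sensors to caspase-1, fell by 1.09 ± 0.147, Nlrp1b by 0.85 ± 0.135, the pro-apoptotic Bcl2l11 (BIM) by 0.83 ± 0.0956 and Naip5, a flagellin sensor, by 0.70 ± 0.123.

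Glycolysis and hypoxia-inducible genes rose in 17 of 24 measured, with 1 fall (2 falls without unstimulated array 2 or LPS array 3). Slc2a1 (GLUT1), the glucose transporter, read 10.18, 10.31, 10.19 and 10.11 without and 12.79, 12.91, 12.59 and 12.38 with LPS, and Slc2a3, another glucose transporter, was the gene that fell, by 1.48 ± 0.117. Slc16a3, which exports lactate, rose by 2.32 ± 0.167, the phosphofructokinase subunit Pfkl by 1.75 ± 0.136 and Adm, a vasodilator peptide induced by hypoxia, by 2.38 ± 0.215. Pdk1, which holds pyruvate back from the citric acid cycle, was not called (-0.23, adjusted p = 0.29). Genes of the citric acid cycle and respiratory chain rose in 4 and fell in 7 of 28, with a median change of -0.07. Rises were about as frequent as over all genes (14%), and falls somewhat more frequent (16.8% over all genes). The largest falls in this list were Idh2 at -1.38, Mdh1 at -1.29, Idh1 at -1.25 and the fumarase gene Fh1 at -0.97, all called. Idh1 and Mdh1 encode cytosolic enzymes, so these falls do not all lie in the mitochondrial cycle. Cycs (cytochrome c) rose by 1.0 ± 0.172.

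Genes of lipid handling mostly fell. Of 21 measured members of the list of LXR, PPAR and lipid handling 1 rose and 12 fell, with a median change of -0.49. Pparg, the nuclear receptor of lipid storage and alternative activation, went from 9.79, 10.13, 9.71 and 10.25 to 8.13, 7.64, 7.79 and 7.80. Lipa, the lysosomal acid lipase, fell by 1.93 ± 0.179, the cholesterol exporter Abcg1 by 1.88 ± 0.167 and Rxra, the shared partner of these receptors, by 1.53 ± 0.147. Nr1h3 (LXR alpha) was the gene that rose, by 1.48 ± 0.259. Apoe was not called (-0.34, adjusted p = 0.59), with the opposite sign (0.05) without LPS array 2. Synthesis of sterols and fatty acids was evenly split, 7 higher and 7 lower of 24. Ch25h, which makes the antiviral 25-hydroxycholesterol, rose by 3.28 ± 0.183, well above the next member, Srebf2 (0.80 ± 0.142). Scd2, a fatty acid desaturase, and Dhcr7, the last enzyme of cholesterol synthesis, fell by 1.88 ± 0.384 and 1.25 ± 0.105.

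Amino acid and metal transport held some of the largest single rises. Slc7a11, the cystine importer that feeds glutathione synthesis, read 5.91, 6.55, 6.71 and 6.36 without and 11.48, 11.87, 11.88 and 11.60 with LPS. In its list 8 of 24 rose, among them the arginine importer Slc7a1 (1.45 ± 0.163) and Psat1, of serine synthesis (1.42 ± 0.202), and 4 fell, among them Slc38a1 (-1.29 ± 0.176) and Slc1a5 (-1.10 ± 0.113), which import glutamine. Of 28 genes of iron, metal and antioxidant handling 9 rose and 3 fell. Lcn2, which traps bacterial iron carriers, read 7.22, 6.79, 6.57 and 6.16 without and 12.36, 12.05, 11.26 and 11.89 with LPS. Slc39a14, an importer of zinc and iron, rose by 2.94 ± 0.153, and Sod2, the mitochondrial superoxide dismutase, by 2.22 ± 0.0861. Slc40a1 (ferroportin), the iron exporter, fell by 2.13 ± 0.241 and the ferrireductase Steap3 by 1.13 ± 0.18.

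Genes of the resting macrophage fell more often than they rose. Of 23 identity and lineage genes 6 rose and 12 fell. Cebpa, a lineage factor, fell by 2.61 ± 0.148, Mef2c by 1.93 ± 0.204 and Mertk, the receptor for apoptotic cells, by 1.62 ± 0.16. Mrc1 (the mannose receptor) read 9.93, 10.29, 10.62 and 10.79 without and 7.92, 7.26, 8.57 and 8.28 with LPS, and the groups do not overlap. Adgre1 (0.10, adjusted p = 0.396) and Itgam (-0.13, adjusted p = 0.517) were not called. The rises were Marco, a scavenger receptor for bacteria (4.05 ± 0.275), the transcription factors Gfi1 (3.43 ± 0.145), Tfec (2.75 ± 0.187) and Ikzf1 (1.12 ± 0.0936), and 2 smaller ones. Marco went from 6.71, 6.76, 6.90 and 6.23 to 10.27, 10.37, 11.15 and 11.03.

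Alternative activation genes were divided, 5 higher and 8 lower of 18. Clec10a, a lectin induced by IL-4, fell by 2.14 ± 0.244 and Stab1, a scavenger receptor, by 1.36 ± 0.165, while Fn1 (fibronectin) rose by 1.23 ± 0.221 and the transglutaminase Tgm2 by 1.22 ± 0.266. Among 33 scavenger, phagocytic and lectin receptors 12 rose and 9 fell. Olr1, which binds oxidised lipoprotein, rose by 4.11 ± 0.211, Clec4e (Mincle), which senses mycobacterial glycolipid, by 3.21 ± 0.196, and Trem1, an amplifier of inflammation, by 2.92 ± 0.287. Gas6, which bridges dead cells to the receptor MERTK, fell by 2.41 ± 0.338. The integrin subunit Itgb5 fell by 2.39 ± 0.196 and Scarb1, a lipoprotein receptor, by 1.61 ± 0.162. Axl, a receptor related to MERTK, was not called (0.42, adjusted p = 0.302).

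Genes of complement, coagulation and matrix proteolysis rose in 13 of 30 and fell in 7. Serpinb2, an inhibitor of plasminogen activators, read 6.36, 5.78, 5.77 and 6.06 without and 12.03, 11.67, 11.09 and 11.28 with LPS. The collagenases Mmp13 and Mmp14 rose by 4.24 ± 0.255 and 3.68 ± 0.213 and Plaur, the urokinase receptor, by 3.06 ± 0.231. Timp2, an inhibitor of such proteases, fell by 1.91 ± 0.256, Mmp19 by 1.22 ± 0.116 and Thbd (thrombomodulin), which restrains clotting, by 0.98 ± 0.14. Adhesion and migration genes rose in 10 of 30 and fell in 13. The integrin subunits Itgax and Itga5 rose by 2.56 ± 0.427 and 2.01 ± 0.0959 and the adhesion ligands Icam1 and Vcam1 by 2.09 ± 0.128 and 1.96 ± 0.209. Rgs2, which turns off G protein signals, went from 10.32, 10.37, 10.32 and 10.82 to 6.62, 6.32, 6.68 and 7.15. P2rx7, the ATP-gated channel that triggers the inflammasome, fell by 2.21 ± 0.156 and S1pr1, which guides cells out of tissue, by 1.99 ± 0.183.

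DNA replication genes fell more often than they rose, while the mitosis list showed little beyond the shares of all genes (14% higher, 16.8% lower). Of 31 DNA replication genes 2 rose and 15 fell. The helicase subunits Mcm6 and Mcm7 fell by 1.42 ± 0.154 and 1.39 ± 0.142, the ribonucleotide reductase subunit Rrm1 by 1.32 ± 0.133 and E2f1 by 1.12 ± 0.096, whereas Tyms, which makes thymidylate, rose by 1.17 ± 0.194. The other rise, Ccne1 (0.50), was lost without LPS array 1 or unstimulated array 4 (adjusted p = 0.0523 and 0.0518). Of 25 mitosis genes 3 rose and 7 fell. That count of falls was 4 without unstimulated array 3 or 4 or without LPS array 1, 2 or 4, so it rests on single arrays. A count of 4 in 25 is close to the share over all genes. Of the falls 0 reached 2-fold, and the list's median change was -0.14. Mki67, which encodes the proliferation antigen Ki-67, read 7.65, 7.88, 8.22 and 8.27 without and 10.66, 10.79, 11.09 and 10.49 with LPS. Mad2l1, of the spindle checkpoint, also rose, by 1.80 ± 0.205, while the kinase Aurkb and the motors Kif11 and Kif23 fell by 0.97 ± 0.169, 0.70 ± 0.191 and 0.68 ± 0.177. For Kif11 the adjusted p was 0.059 without the arrays numbered 4. Of 18 cell cycle brakes and D cyclins 7 rose and 5 fell. Ccnd2 rose by 3.18 ± 0.304 and its relative Ccnd1 fell by 1.70 ± 0.194. Gadd45b and Gadd45a, stress-induced brakes, rose by 2.76 ± 0.125 and 2.09 ± 0.213, and the brake Cdkn2c fell by 1.58 ± 0.133.

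Chromatin regulators rose in 3 of 22 and fell in 9. Kdm6b (JMJD3), a histone H3 demethylase that LPS is known to induce, rose by 2.41 ± 0.222 and Tet2, which oxidises methylcytosine, by 1.08 ± 0.149. Hdac5, a histone deacetylase, fell by 2.08 ± 0.115 and Dnmt1, which copies DNA methylation at replication, by 1.55 ± 0.114. Circadian clock genes rose in 5 of 17 and fell in 7. Cry1, a repressor in the core loop, rose by 1.64 ± 0.186 and Nfil3, which represses clock output, by 0.92 ± 0.217. The output factors Dbp and Tef, which bind the same sites as NFIL3, fell by 1.11 ± 0.146 and 0.88 ± 0.118, and Bhlhe41 by 2.08 ± 0.32. Per1 was not called (0.13, adjusted p = 0.483).

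MicroRNA genes were represented by 22 genes, of which 12 rose and 0 fell. The probes read the gene, so a level may come from the primary or precursor transcript and does not measure the mature miRNA. The mature 5p or 3p sequences below, from RefSeq (assembly GRCm38.p6), belong to the genes that the rises turn on, with the seed (bases 2 to 8) in capitals, and pairs with a shared seed stand together.
miR-155-5p: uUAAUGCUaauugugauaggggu
miR-146a-5p: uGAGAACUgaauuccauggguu
miR-146b-5p: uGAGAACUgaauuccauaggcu
miR-221-3p: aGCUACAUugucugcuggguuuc
miR-222-3p: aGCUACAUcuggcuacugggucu
let-7e-5p: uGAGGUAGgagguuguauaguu
miR-99b-5p: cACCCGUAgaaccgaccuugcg
miR-125a-5p: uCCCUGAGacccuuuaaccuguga
Mir155, the source of a miRNA known for targeting brakes on cytokine signals, read 7.40, 6.77, 6.52 and 6.31 without and 11.02, 11.64, 11.86 and 11.08 with LPS. The pair with the seed GAGAACU, which is known to lower the signalling proteins IRAK1 and TRAF6, rose from separate chromosomes, Mir146b (chromosome 19) by 1.79 ± 0.213 and Mir146 (miR-146a, chromosome 11) by 1.70 ± 0.446. Mir146 read 4.60, 6.76, 5.94 and 5.86 without and 7.10, 8.26, 7.75 and 6.83 with LPS, and unstimulated array 1 was the low one. Mirlet7e rose by 1.80 ± 0.198, with levels of 7.64, 7.73, 7.88 and 8.25 and 9.51, 9.74, 9.40 and 10.06. Its neighbours on chromosome 17, Mir99b and Mir125a, rose by 1.12 ± 0.107 and 1.28 ± 0.123. The pair with the seed GCUACAU on the X chromosome, Mir221 and Mir222, rose by 1.64 ± 0.189 and 1.68 ± 0.249. Mir99b, Mir125a, Mir221 and Mir222 were named after their values were seen. Mir17 was not called (0.56, adjusted p = 0.0647), although it was without LPS array 4 (adjusted p = 0.0161). Its neighbours on chromosome 14, Mir18, Mir19a and Mir20a, rose by 1.64, 0.93 and 0.74 (adjusted p = 0.000122, 0.000211 and 0.00264). They too were named after their values were seen. Mir212 was not called (0.26, adjusted p = 0.117).

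Beside Hpgd, Rgs2 and Cxcr4, given above, several of the largest falls lay in genes outside the lists. Rasgrp3, an activator of Ras, read 9.21, 9.94, 9.79 and 9.94 without and 5.44, 5.61, 5.77 and 5.30 with LPS. Gcnt1, which branches sugar chains on glycoproteins, read 10.28, 10.64, 10.50 and 10.66 and 6.39, 6.17, 6.46 and 6.57, and St6gal1, which adds sialic acid, fell by 3.26 ± 0.127. Rnf144b, a ubiquitin ligase, fell by 4.16 ± 0.16. The lysosomal transporter gene Slc46a3 fell by 4.04 ± 0.131 and the translation repressor Pdcd4, a target of miR-21, by 3.28 ± 0.209. Lpar6, a lysophosphatidic acid receptor, fell by 3.39 ± 0.232. Among rises outside the lists, Cd69, an early activation antigen that retains leukocytes in tissue, rose by 4.93 ± 0.217, the chitinase-like protein gene Chil1 by 4.84 ± 0.248 and Itgb8, a subunit of the integrin that activates TGF-beta, by 4.51 ± 0.231.

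Markers of cells other than macrophages rose and fell in the counts that follow, against 14% and 16.8% of all genes. Of 14 markers of T, B and NK cells 2 rose and 1 fell, of 16 of neutrophils and mast cells 1 rose and 0 fell, and of 12 of dendritic cells 3 rose and 1 fell. The T, B and NK cell calls were Cd8a (0.27), Ms4a1 (0.31) and Cd4 (-0.61), none of which held without every single array. Cd8a lost the call without unstimulated array 1 or 4 or LPS array 1 or 4 (adjusted p = 0.0759 to 0.129), Ms4a1 without unstimulated array 3 or LPS array 4 (0.0541 and 0.0626) and Cd4 without unstimulated array 1 or LPS array 2 (0.0624 and 0.0632). The rise in the neutrophil list was Camp, an antimicrobial peptide (0.79 ± 0.168), and those in the dendritic cell list were Itgax and Cd83, given above, and Xcr1 (0.63 ± 0.166), with the tryptophan enzyme Kmo falling by 0.68 ± 0.133. Of 8 markers of erythroid cells and megakaryocytes 2 rose, Pf4, given above, and Car2 (0.55 ± 0.162), which lost the call without LPS array 1 (adjusted p = 0.0552). Of 16 stromal and endothelial markers 3 rose. The growth factor receptors Pdgfrb and Kdr rose by 3.88 ± 0.148 and 2.68 ± 0.149. Pdgfrb read 7.04, 6.86, 6.98 and 6.85 without and 10.98, 11.16, 10.65 and 10.44 with LPS. Vwf, a defining gene of endothelium, was not called (-0.33, adjusted p = 0.212), and the third call, Pecam1 (0.31, adjusted p = 0.0355), was lost without LPS array 1, 2 or 3 or unstimulated array 2, 3 or 4 (adjusted p = 0.0566 to 0.123). The part of other cells in these rises was not tested.

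Nfat5, the gene that distinguishes the 2 genotypes of the set, was itself induced in wild-type cells. Its levels were 9.15, 9.41, 9.34 and 9.67 without and 9.95, 10.56, 9.97 and 9.80 with LPS, and the groups do not overlap. The rise was 0.68, and the call was lost in the limma test against a minimum fold of 1.2 (adjusted p = 0.0587). The deleted part of Nfat5 in KO cells is not described in the sources used here. The test of the difference between wild-type and KO cells in the LPS change called 257 of 19937 genes (1.29%). Of these, 60 had a more positive change in wild-type and 197 a more negative one. The wild-type response also called 230 of them, against 14% rises and 16.8% falls over all genes. The difference contains the wild-type change of the same arrays, so this overlap is partly built in. Nos2 rose by 3.60 ± 0.162 in wild-type and changed by 1.30 in KO cells, a difference of 2.29 ± 0.23 (adjusted p = 7.35e-05). Il6 rose by 8.11 in wild-type cells against 6.40, a difference of 1.71 ± 0.192 (adjusted p = 0.000211). Fosl2 rose by 1.64 in wild-type cells and changed by 0.03 in KO cells (difference adjusted p = 0.000146). Egr1 changed by 0.89 and -0.39 (difference adjusted p = 0.0018), Phlda1, a regulator of cell survival, by 2.25 and 0.92 (adjusted p = 0.000269) and Tmc3 by 2.99 and 1.23 (adjusted p = 0.000127).

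Falls differed as well. Ciita fell by 2.39 in wild-type cells and was at -0.17 in KO cells, a difference of -2.22 ± 0.212 (adjusted p = 5.32e-05), from unstimulated means of 9.40 and 7.52. The potassium channel gene Kcnj10 changed by -3.01 and -1.21 (difference adjusted p = 5.32e-05), Tbc1d8, a predicted Rab regulator, by -1.78 and -0.37 (adjusted p = 0.000218) and the Mediator subunit gene Med22 by -1.29 and -0.10 (adjusted p = 0.000394). Sex-linked transcripts followed genotype in part: Xist lay above the Y-linked Kdm5d in all 8 wild-type arrays and in 2 of 8 KO arrays. When the model was fitted to those 10 arrays alone, a choice made after seeing the data, 4 genes were called for the difference. Each KO treatment then had 1 array, whose spread was taken to equal that of the wild-type groups. In that fit the difference was 1.83 for Nos2, 1.92 for Il6 and -2.17 for Ciita (adjusted p = 0.0695, 0.0995 and 0.0995), and Tmc3 was called (2.10, adjusted p = 0.0242). Without the arrays numbered 1 of all groups 33 genes were called for the difference, and without single arrays 133 to 271. The count was below 257 by over 1.5 times without wild-type unstimulated array 2 (136), wild-type LPS array 2 (133), KO unstimulated array 1 (149), or KO LPS array 1 (148), 2 (168) or 3 (145).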

How the data were processed

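Total RNA of each sample was amplified, biotin-labelled and hybridised to a 1-channel Affymetrix array, per the labels. The deposited values are log2 levels per probe set made by the authors by RMA (robust multi-array averaging), as the submitters' processing notes name it; the sources used here do not state its version or the array's gene build. RMA sets the arrays to a common distribution, so a change shared by all genes is lost. Array medians lay between 6.76 and 6.86. Of 34760 probe sets 21640 named 1 gene, 1321 several, and 11799 were not listed.

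All 16 arrays entered 1 linear model with a mean per group (limma 3.58.1, R 4.3.3; 12 residual degrees of freedom); the number of arrays limits the precision. Array pairs within each wild-type group differed with an SD of 0.194 to 0.381, so none was an identical copy of another. That does not exclude technical repeats, and KO pairs were not compared. The script was checked on simulated data. The 37 gene lists, the motifs and the comparison were chosen with earlier results of these data known. Named genes follow a rule: the 20 largest rises and falls whose groups do not overlap, per list the 4 largest called rises and falls and up to 2 members not called, a set of standard genes, and the 10 smallest adjusted p for the genotype difference. Where a list held 5 or fewer calls in a direction all could be named. Predicted genes, clone names and tandem copies were not named, some genes were left out for length, and exceptions are marked. Promoter windows and miRNA sequences are from RefSeq tables (GRCm38.p6); 21 of 22 miRNA genes matched. The alternatives were other array sets, the replicate number as a block, normalizations, filters, probe set choices, variance models and leaving out arrays.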

Additional observations from a re-analysis of the deposited data

Results flagged for a closer look

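Among 522 groups of 4 arrays (261 genes named above or counted with them, each without and with LPS), 23 had 1 array that stood far from the other 3 by Dixon's test at its 95% critical value. Chance alone gives about 1 in 20. LPS array 2 was highest for Tnfaip3 (11.97). LPS array 2 was lowest for Bcl2l11 (8.98), Ifi30 (9.60), Srebf2 (10.57) and Zfp36l2 (9.02). LPS array 4 was lowest for Ccrl2 (11.48). Unstimulated array 1 was highest for Mmp13 (8.10) and Tnfrsf1a (10.91). Unstimulated array 1 was lowest for Cebpa (9.79) and Dnmt1 (9.30). Unstimulated array 2 was highest for Ch25h (7.81), Hprt (10.66), Nfkbiz (9.94) and Pf4 (9.59). Unstimulated array 2 was lowest for Il6 (3.86), Med22 (9.45), Mir212 (7.85), Srebf2 (9.95) and Steap3 (8.88). Unstimulated array 3 was lowest for Ccr2 (7.73). Unstimulated array 4 was highest for Fosl2 (8.96), Rgs2 (10.82) and St6gal1 (10.29).

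The LPS change differed between wild-type and KO cells, by limma's test of the difference at an adjusted p under 0.05, for 43 of these genes. Over all genes that test called 257 of 19937 (1.29%). The named genes were picked in part by the same test and by the size of the wild-type change, which enters the difference. Their count therefore cannot be compared with the share over all genes. The difference given is the wild-type change minus the KO change on the log2 scale. It was positive for Serpinb2 (2.58), Trem1 (2.43), Nos2 (2.29), Il1a (2.07), Olr1 (2.0), Lcn2 (1.89), Tmc3 (1.76), Shisa3 (1.74), Il6 (1.71), Mmp13 (1.68), Plaur (1.66), Slc40a1 (1.64), Fosl2 (1.61), Mir146b (1.5), Slc7a11 (1.42), Kdm6b (1.38), Phlda1 (1.34), Adm (1.28), Egr1 (1.27), Ier3 (1.24), Slc39a14 (1.17), Gfi1 (1.12) and Cxcl1 (0.88). It was negative for Ciita (-2.22), Ifit3 (-1.96), Kcnj10 (-1.80), H2-DMa (-1.49), Clec10a (-1.47), Tbc1d8 (-1.41), Tlr9 (-1.25), Ccr2 (-1.24), Med22 (-1.19), Lipa (-1.14), Alox5 (-1.12), Zfp36l2 (-1.07), P2rx7 (-1.01), Cd14 (-0.99), Tap1 (-0.98), Rtp4 (-0.89), Dhcr7 (-0.81), Slc46a3 (-0.78), Mdh1 (-0.71) and Bcl2l11 (-0.61). Xist lay above Kdm5d in all 8 wild-type and in 2 of 8 KO arrays, and the part of sex in these differences was not tested beyond the 10-array fit described above.

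Probe sets that the annotation gives to several genes or does not list were left out of the gene counts. Of 13120 such probe sets 666 were called higher and 740 lower with LPS in wild-type arrays.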

How the results depend on the processing

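The 4 counts of the wild-type response stayed within 1.5 times under every alternative except a test against a minimum fold of 1.2, which left 1378 rises and 1965 falls. Leaving out single wild-type arrays gave 2378 to 2583 rises, 2976 to 3457 falls, 673 to 732 rises of at least 2-fold and 859 to 1036 falls of at least 2-fold. Compared gene by gene with the reported fit, no alternative called a gene in the opposite direction; the test of every probe set was not compared in this way. Among the genes named, the sign turned only for Tnip2, Apoe and H2-Ab1, none called. The Tnip2 change was -0.0684 without the arrays numbered 1, and -0.048 (without unstimulated array 1) to 0.1639 (without unstimulated array 4) when single arrays were left out. The Apoe change was -0.6192 (without unstimulated array 2) to 0.0501 (without LPS array 2). The H2-Ab1 change was -0.0368 after quantile normalization, -0.0203 without the arrays numbered 4, and -0.0858 (without unstimulated array 4) to 0.1139 (without unstimulated array 2) when single arrays were left out.

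The genotype difference moved more. It called 257 genes, 59 when every probe set was tested, 30 against a minimum fold of 1.2, 153 without the arrays numbered 4, 33 without those numbered 1, 4 in the 10 arrays with Xist above Kdm5d, and 133 to 271 without single arrays.

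Same-numbered arrays without and with LPS deviated from their group means together by 0.05, 0.41, 0.43 and 0.25 for numbers 1 to 4, and other pairs by -0.36 to 0.09; 3 of 4 LPS arrays correlated best with their own number. Number 1 lies under the minimum of 0.1, so the numbers were not taken to pair the arrays. With the replicate number as a block, 3186 genes rose and 3688 fell, and 451 were called for the difference. Of the named genes, Axl (adjusted p = 0.00171 and 0.00548) and Mir17 (0.00595 and 0.0145) gained a call with the block in all 16 arrays and in the 8 wild-type arrays. With the block in the 8 wild-type arrays alone, Il10 (0.0101), Vwf (0.0254), Apoe (0.0293), Tlr3 (0.032) and Mir212 (0.0491) gained one and Cd8a lost it (0.0942). Dim probe sets limit what can be detected for genes such as Ifnb1.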

Other observations

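Of the 954 genes read by several probe sets, all probe sets were called in the same direction for 162, some for 207 and none for 583. For 2 genes they were called in opposite directions, and both were named after their values were seen: the changes ranged from -0.78 to 0.95 over the 4 probe sets of Camta1 and were -0.27 and 0.79 for the 2 of Sympk. The gene-level value used here is that of the brightest probe set, and other probe sets of a named gene can differ in size or call. The changes of the 2 probe sets of Hivep3 were 0.78 and 2.50, both called. For Irf1 they were 0.44 and 0.85, with 1 called. Over the 3 probe sets of Socs6 they ranged from -1.36 to -0.12, with 2 called.

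Unstimulated array 4 was the highest of its group for 63.4% of the genes that fell at least 2-fold (29.6% of all genes), and array 1 the lowest for 51.4% (30.8% of all genes). Among genes that rose at least 2-fold the same arrays were the lowest in 27.7% and 31.6%. Without unstimulated array 4, 859 genes fell at least 2-fold, and without array 1, 1036.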
